A study of Rattus norvegicus with 8 samples.

Results

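H3K36me3 regions that lay far from every named RNA locus and were found in both conditions were described in rat aortic smooth muscle cells. A region was taken from the control H3K36me3 list when it was at least 5000 bp and under 150 kb wide, overlapped an H3K36me3 region of the angiotensin II list by at least 1 bp, and lay more than 10 kb from every RNA locus that carries an NM_ or NR_ RefSeq accession. Of 17425 control regions, 11644 had that width, 9833 of those overlapped a region of the other list, and 1625 met every criterion. These 1625 are called distal regions. The 8208 shared regions of the same width range that lay within 10 kb of a named locus, called near-gene regions, were set beside them.

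The cells were primary vascular smooth muscle cells of Sprague-Dawley rats, cultured from the thoracic aorta. One group was untreated, and the other received angiotensin II (AngII), a vasoconstrictor peptide, at 0.1 uM for 3 h. Overnight withdrawal of serum is stated for the AngII cells, and the labels do not state it for the untreated cells, so serum and hormone cannot be told apart from the labels alone. RNA, H3K4me3 and H3K36me3 were each measured in 1 library per condition. No difference between conditions therefore has a replicate check, no p-value is given, and 95% intervals of shares are exact Clopper-Pearson intervals that cover counting error only.

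H3K36me3 is laid down behind elongating RNA polymerase, mainly by the methyltransferase Setd2, and marks the bodies of transcribed genes. H3K4me3 marks promoters and the first stretch of active genes. A transcribed long non-coding RNA can therefore carry H3K4me3 at its start and H3K36me3 along its length, and both marks have been used together to find transcription units between annotated genes. The regions were selected on the H3K36me3 lists and on the position of named loci, so width, cover and distance are given as description. The H3K4me3 lists and the FPKM of unnamed loci were not used to choose the regions.

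The control list held 17425 H3K36me3 regions in bins of 589 bp and the AngII list 16578 in bins of 548 bp. H3K4me3 had 28168 control and 27801 AngII regions. The RNA table, from total RNA depleted of ribosomal RNA, listed 30937 loci, of which 10068 had no accession, and does not give their strand. Smooth muscle markers were present, with Tagln at 5103 FPKM (fragments per length of transcript and library size) in control and 5244 with AngII. Of the 3 endothelial, 4 leukocyte and 2 adipocyte markers with a locus, 0 reached 1 FPKM, the highest value being 0.452 FPKM. All 5 adventitial fibroblast markers with a locus reached 1 FPKM, and Lum had the highest value, 140.0 FPKM in control. Of 4 Schwann cell and neuron markers 2 did, up to 3.27 FPKM, and 5 of 6 smooth muscle markers did. Of 24 chosen enzymes and readers of H3K36 and H3K4 methylation, 16 had a locus, of which 14 were expressed and 0 differed 2-fold. Setd2, Nsd1, Setd1a, Setd1b, Kmt2a, Kmt2b, Kdm5a and Kdm5c had no matched locus, so their RNA is not known here.

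The rn4 sequence of the distal regions was not used here. RefSeq promoter sequences of the newer assembly GRCr8 were matched to them by their flanking genes. In 1341 of the 1625 regions the nearest matched genes on both sides lay on the same chromosome and a like distance apart in GRCr8, in either order. The nearest matched genes are the flanking genes named below, and a named locus that matches no RefSeq gene or several can lie nearer. Some named pairs did not keep a like distance in GRCr8. They are Mcc and Kcnn2, Ezh2 and Pdia4, Cpe and Tll1, Plcl2 and Dazl, Psmd10 and Actrt1, and Glra3 and Gpm6a. Genes between flanking genes are given only for pairs that did. Genes matched to a locus with an accession are left out of all these counts and lists. On that count RefSeq places exactly 1 gene between the flanking genes of 111 of the 1341. Among those 111, the regions with an expressed RNA locus and H3K4me3 at an end numbered 6, and the sequence table holds the promoter of the gene between for 4 of them. The rule was chosen after values were seen, and the start of the gene was not shown to lie in the region. The 250 bases before the start are printed for 3 of them, 5′ to 3′ on the gene's strand, to show how different in CG content these candidate starts are. Capitals mark every CG dinucleotide.
Prkca: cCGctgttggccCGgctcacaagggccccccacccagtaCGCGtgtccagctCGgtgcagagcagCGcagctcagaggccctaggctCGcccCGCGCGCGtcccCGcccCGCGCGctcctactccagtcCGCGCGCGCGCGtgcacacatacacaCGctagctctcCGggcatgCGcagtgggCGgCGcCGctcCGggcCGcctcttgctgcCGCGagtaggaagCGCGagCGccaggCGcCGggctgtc
LOC120093582: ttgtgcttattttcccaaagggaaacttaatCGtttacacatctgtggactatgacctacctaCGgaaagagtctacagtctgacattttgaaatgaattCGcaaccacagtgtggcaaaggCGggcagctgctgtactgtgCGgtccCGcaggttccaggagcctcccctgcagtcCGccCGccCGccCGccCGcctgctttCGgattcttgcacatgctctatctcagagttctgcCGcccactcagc
LOC108350725: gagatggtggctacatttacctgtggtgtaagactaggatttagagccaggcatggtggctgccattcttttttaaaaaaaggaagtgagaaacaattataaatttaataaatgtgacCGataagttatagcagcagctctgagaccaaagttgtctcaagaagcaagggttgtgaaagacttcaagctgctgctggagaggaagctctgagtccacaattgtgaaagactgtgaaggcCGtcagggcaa
The first is at GRCr8 chr10:93787328-93787577, minus strand, before Prkca, protein kinase C alpha, between Cacng5 and Apoh. It has 36 CG dinucleotides, and 2.25% of 33469 RefSeq rat promoters of this length have at least as many. The second, at GRCr8 chr7:45651444-45651693, plus strand, precedes a long non-coding RNA gene between Pawr and Syt1 and has 13 CG dinucleotides, a number that 29.4% of promoters reach. The third, at GRCr8 chr4:120350167-120350416, minus strand, precedes a long non-coding RNA gene between Tgfa and Fam136a and has 2, a number that 81.9% reach. The remaining promoter, of LOC134481619 between Gli2 and Inhbb, has 5 (55.3%).

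The distal regions between those flanking genes differed in their marks and RNA. The region between Cacng5 and Apoh, rn4 chr10:97630699-97638944, was 8246 bp wide and had H3K4me3 at an end after AngII only. Its expressed locus XLOC_005890 had 0.139 FPKM in control (bounds deposited with the values, 0 to 0.299) and 1.06 with AngII (0.327 to 1.78), so that the bounds were apart. With 1 added to both values, as in all ratios below, the log2 ratio was 0.85. The region between Pawr and Syt1, rn4 chr7:47155876-47190037, had H3K4me3 at an end in both conditions and lay wholly under AngII H3K36me3. It held 3 unnamed loci at 1 interval, of which XLOC_025178 had 1.59 and 1.54 FPKM, and XLOC_026418, the highest in control, had 2.32 and 0.803 FPKM with overlapping bounds. Between Tgfa and Fam136a, rn4 chr4:120501365-120524335, the locus XLOC_021215, the highest of 3, had 4.09 FPKM in control against 1.68 with AngII, with overlapping bounds. This region too had H3K4me3 at 1 end in both conditions.

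Distal regions were narrower than near-gene regions and of low score within the control list, whose median width was 11780 bp. The median width of distal regions was 11191 bp (interquartile range 7657 to 20026), against 30039 bp for near-gene regions. The median score percentile in the control list was 26.6, against 49.97. A median of 82.6% of a distal region lay under AngII regions (interquartile range 50.7 to 99.0), against 99.0% for near-gene regions. Of the 1625, 359 (22.1%, 20.1 to 24.2) lay wholly under AngII regions, 1228 (75.6%) at least 50% under them, and 37 (2.28%) less than 10%. Most, 1542, met a single AngII region, 76 met 2 and 7 met 3 or more.

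The nearest named locus lay a median of 67.5 kb away (interquartile range 30.8 to 180). It was 10 to 50 kb away for 662 regions, 50 to 200 kb for 607 and over 200 kb for 356. The AngII region that overlapped a distal region reached within 10 kb of a named locus in 103 cases. In 115 cases another control H3K36me3 region within 10 kb was itself near a named locus. Apart from both stood 1454 regions (89.5%). Chromosome 2 held the most distal regions, 185 over 3.43 Mb, and chromosome 19 the fewest, 19.

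The values at the thresholds were as follows. Widths are whole multiples of the bin, so 117 distal regions were at the smallest width of 5301 bp, and 123 otherwise like regions stood just outside at 4712 bp. Just inside the distance threshold lay regions 10.067, 10.075 and 10.077 kb from the nearest named locus. Kdf1 is that locus for the first. The nearest loci matched to a RefSeq gene lay further away for the second, between Ppwd1 and Cwc27, and the third, between Septin11 and Shroom3. Just outside lay regions at 9.983, 9.959 and 9.947 kb. Among the 3 just inside, the region between Ppwd1 and Cwc27 had an expressed locus, at 1.10 FPKM, and none had H3K4me3 within 1 kb of an end. Among the 3 just outside, 1 had H3K4me3 at an end, after AngII.

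H3K4me3 stood at an end of distal regions less often than of near-gene regions. At an end means that an H3K4me3 region lay within 1 kb of the start or end of the H3K36me3 region. In control this held for 246 of 1625 (15.1%, 13.4 to 17.0), where 47.8% of all 9833 shared regions in the width range had it. After AngII it held for 252 (15.5%, 13.8 to 17.4), where 47.7% of all had it. Of near-gene regions, 54.3% (53.2 to 55.3) had H3K4me3 at an end in control and 54.0% after AngII. Both ends were marked in 18 distal regions in control and 19 after AngII, and in 9.17% and 9.03% of near-gene regions.

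The difference was present in every width class. Classes were cut at the quartiles of the distal regions. In the narrowest, 5301 to 7657 bp, 15% (11.9 to 18.5) had H3K4me3 at an end in control, against 37.9% (34.5 to 41.5) of near-gene regions of that width. In the widest, 20615 to 147250 bp, the shares were 19.3% (15.5 to 23.5) and 58.5% (57.2 to 59.9). The intervals of both sets stayed apart in all 4 classes and in both conditions.

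**Figure D1:**
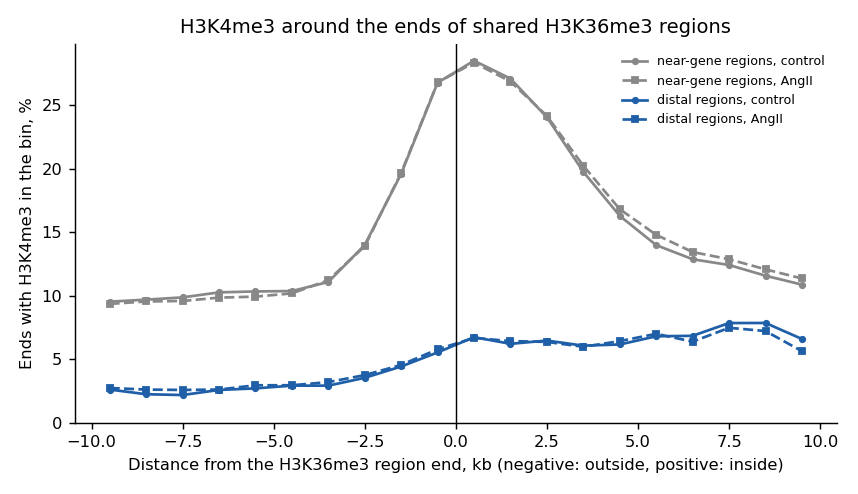
Percent of region ends with H3K4me3 in each 1 kb bin (y axis) by distance from the end of the H3K36me3 region in kb (x axis), for distal and near-gene regions in control (solid) and AngII (dashed). Bins inside use only regions wide enough to reach them. Near-gene regions peak at 28.5% in the first bin inside, while distal regions stand at 6.74% there and keep 6.07 to 7.86% further inside in control.

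Around the ends, H3K4me3 of near-gene regions had a peak that distal regions lacked. In control the share of near-gene ends with H3K4me3 went from 9.53% in the bin 10 kb outside to 28.5% in the first 1 kb inside, and down to 10.9% at 9 to 10 kb inside. At distal ends it went from 2.62% through 6.74% to 6.59% over the same bins. The curves of both conditions lay almost on each other. The median distance from a distal region's nearer end to H3K4me3 was 23.7 kb in control and 22.7 kb after AngII, against 0.553 and 0.559 kb for near-gene regions.

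Most distal regions had no H3K4me3 at all. Neither at an end nor inside, and in neither condition, was any found for 1093 of 1625 (67.3%, 64.9 to 69.5), against 25.4% of near-gene regions. H3K4me3 inside was found in 436 (26.8%) in control and 435 (26.8%) after AngII. Of the 1338 without H3K4me3 at an end, 245 (18.3%) had it inside. H3K4me3 covered 6.71% of the summed width of distal regions in both conditions, and 10.2% and 10.6% of that of near-gene regions.

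The mark at an end was mostly the same in both conditions. H3K4me3 stood at an end in both lists for 211 distal regions, in control only for 35 and after AngII only for 41. Some of the latter 2 sets had a region of the other list close by. Without any H3K4me3 of the other condition inside or within 5 kb were 20 of the 35 and 25 of the 41. An expressed unnamed locus was present in 2 of the 35 and 8 of the 41, whose intervals (0.700 to 19.2% and 8.82 to 34.9%) overlap.

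H3K4me3 at an end was more frequent nearer to named loci. In control it was found at 136 of 662 regions (20.5%, 17.5 to 23.8) that lay 10 to 50 kb from a named locus, 85 of 607 (14%, 11.3 to 17.0) at 50 to 200 kb and 25 of 356 (7.02%, 4.60 to 10.2) beyond 200 kb. The 171 distal regions that adjoined a region or an AngII region near a named locus had it in 26.3% (19.9 to 33.6), and the 1454 apart from these in 13.8% (12.1 to 15.7). Control regions of the same width and distance that met no AngII region, 1123 in number, had it in 3.47% (2.48 to 4.72). These unshared regions were narrower, with a median of 8246 bp, and had a median score percentile of 19.4.

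Unnamed RNA loci lay in a minority of the distal regions. An unnamed locus is a row of the RNA table without an accession that overlaps the region, and it was called expressed at 1 FPKM or more in at least 1 library. Of 1625 regions, 316 (19.4%) held an unnamed locus and 257 (15.8%, 14.1 to 17.7) an expressed one. Among all shared regions in the width range, 11.2% held an expressed unnamed locus, and among near-gene regions 10.3% (9.66 to 11.0). Near-gene regions hold named loci as well, which this count leaves out. In the narrowest width class the shares were 8.96% (6.56 to 11.9) of distal and 1.83% (1 to 3.05) of near-gene regions, and in the widest 29.3% (24.9 to 34.1) and 14.1% (13.1 to 15.04). Beyond 200 kb from a named locus, 42 of 356 distal regions (11.8%, 8.64 to 15.6) held an expressed locus.

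Regions with H3K4me3 at an end held an expressed RNA locus more often than regions without. With H3K4me3 at an end in either condition, 94 of 287 (32.8%, 27.4 to 38.5) did, and without it 163 of 1338 (12.2%, 10.5 to 14.1). Since expressed loci were more frequent in wide regions, the shares were also taken within width classes. In the narrowest they were 25.3% (16.4 to 36) with H3K4me3 and 5.54% (3.51 to 8.27) without. In the second they were 28.8% (17.1 to 43.1) and 5.28% (2.99 to 8.56), in the third 32.8% (21.6 to 45.7) and 13.3% (9.90 to 17.3), and in the widest 42.0% (31.6 to 53.0) and 25.7% (21.0 to 31.0). The intervals were apart in each of the 4 classes. They count each region as independent, although 93 unnamed loci touched more than 1 distal region. Distance differed too, with a median of 38.8 kb to the nearest named locus for the 94 and 79.6 kb for the 1175 regions with neither, and its part in the difference was not tested.

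**Figure D2:**
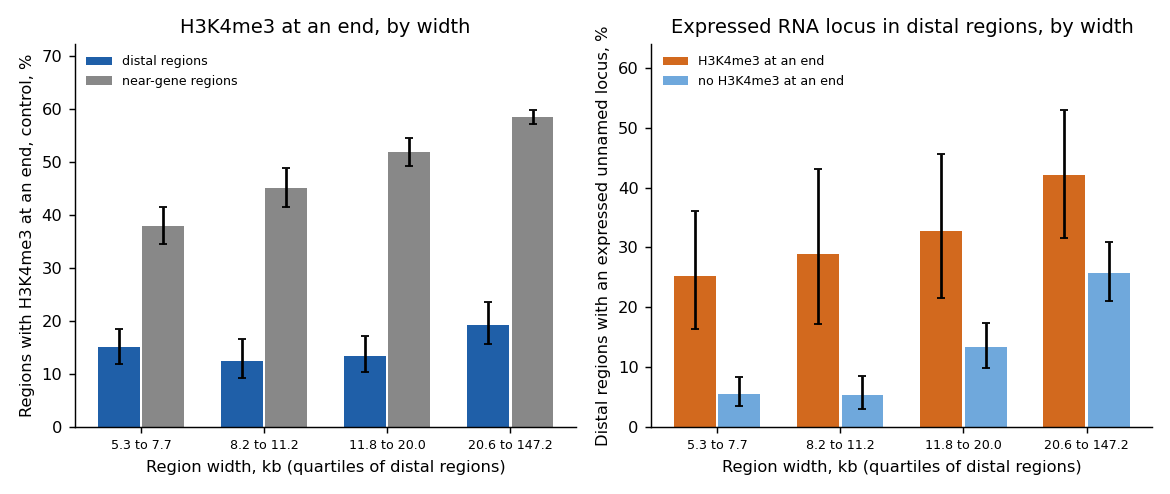
Left, percent of regions with H3K4me3 at an end in control (y axis) for distal and near-gene regions in the 4 width classes (x axis, kb). Right, percent of distal regions with an expressed unnamed locus (y axis) with and without H3K4me3 at an end in the same classes. Bars are shares and error bars exact 95% intervals. Distal bars stay between 12.5% and 19.3% on the left, and on the right the bars with H3K4me3 are the higher ones in every class.

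Neither an expressed unnamed locus nor H3K4me3 was found in 1019 distal regions (62.7%). These had a median width of 10013 bp, a highest width of 118389 bp and a median of 77.1% under AngII regions. Wider regions existed without a listed RNA locus, all 6 named here with H3K4me3 inside in at least 1 condition, and they were 123690 to 147250 bp wide. The widest of all, rn4 chr16:21981076-22128325, lay between Ints10, an Integrator subunit, and the Lzts1 gene, with 59.2% under AngII H3K36me3 and H3K4me3 at 1 end in control only. The next, rn4 chr15:30299746-30438749, lay between the olfactory receptor gene Or4e5 and Dad1, 1844 kb from the nearest named locus, in an interval where RefSeq lists 217 genes, among them V segments, the variable gene pieces of lymphocyte receptors. It had 26.4% under AngII H3K36me3, and H3K4me3 inside after AngII only. The third, rn4 chr6:139203048-139339695, lay 462 kb from the nearest named locus, with 54.1% under AngII H3K36me3 and H3K4me3 inside in control only. The other 3, between Plcl2 and Dazl, between Psmd10 and Actrt1, and between Glra3 and Gpm6a, had 79.2, 100 and 98.1% under AngII H3K36me3, and each had H3K4me3 at an end in at least 1 condition.

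Regions of very high score were different from the rest. The highest score, 396, belonged to rn4 chr13:30425061-30494562, 69502 bp wide and 423 kb from the nearest named locus, Tsn, with H3K4me3 at both ends in both conditions and no listed RNA locus. The second, 249, belonged to an 8835 bp region between Veph1 and the homeobox gene Shox2, of which 17.8% lay under AngII H3K36me3. The third, 222, belonged to rn4 chr4:75895760-75908717, between the H3K27 methyltransferase gene Ezh2 and Pdia4. In all, 26 distal regions were in the top 5% of control scores, a group chosen after values were seen. All 26 had H3K4me3 inside in both conditions, against 21.6% (19.6 to 23.7) of the other 1599. Their median width was 59194.5 bp. A further deposited value, divided by the number of bins, had a median of 0.356 in them and 0.822 in the others. Neither the labels nor the files say what that value measures.

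The unnamed loci inside the distal regions were numerous but mostly weak. There were 1228 at 977 distinct listed intervals, and 660 were expressed, at 523 intervals. The median of the higher of both FPKM values was 1.75 (interquartile range 1.24 to 3.85), against 1.76 for all 4951 expressed loci without an accession and 7.33 for all expressed loci. At least 5 FPKM was reached by 127, 10 FPKM by 70 and 100 FPKM by 18. Their listed span had a median of 2219.5 bp. The table lists several pieces at 1 interval, which held for 178 of the 660, and such pieces cannot be placed within it, so they are not independent of each other. Counted by interval and over 300 bp, 174 of 482 (36.1%, 31.8 to 40.6) had H3K4me3 within 1 kb of an edge in control and 184 (38.2%) after AngII. The shares were 41.2% and 41.7% for expressed unnamed loci elsewhere, and 84.0% and 84.2% for expressed loci with an accession.

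The highest FPKM values belonged to very short loci. FPKM divides by length, so a given number of reads yields a higher value at a short locus. The read numbers are not known here, and these levels are uncertain. XLOC_027992, 95 bp long, had 207178 FPKM in control (bounds 112134 to 302221) against 321823 with AngII (177559 to 466087). It lay at an end of rn4 chr8:11962383-11970039, between Hephl1 and Vstm5, where H3K4me3 reached the same end in both conditions and between whose flanking genes RefSeq lists a snoRNA gene, LOC120094473, and 2 pseudogenes. XLOC_026409, 88 bp, stood at 52218 and 101524 FPKM in the region between Dusp6, a phosphatase of ERK kinases, and Kitlg. XLOC_008020 and XLOC_013057 had 42355 and 11165 FPKM in control against 38037 and 8489 with AngII, the latter in a region of 130758 bp between Mcc and Kcnn2. XLOC_029369, 117 bp, stood at 6764.5 and 8666 FPKM in a region between the collagen gene Col3a1 and Slc40a1, where RefSeq also lists Col5a2. Col3a1 and Slc40a1 lay 464 and 152 kb away, and the nearest named locus 18.2 kb away. XLOC_003360, XLOC_019596 and XLOC_009146 followed at 3570, 780 and 539 FPKM in control against 3322, 615 and 394 with AngII. The bounds of both conditions overlapped for all 8.

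After AngII, FPKM of the unnamed loci in distal regions was on balance slightly lower, as it was over the whole table. In these bulk samples fewer transcribing cells, less RNA per cell and a difference in scaling between the libraries cannot be told apart. The log2 ratio, log2((AngII FPKM + 1)/(control FPKM + 1)), had a median of -0.24 over the 660 expressed loci (interquartile range -0.77 to 0.39). The median was -0.24 over all 16654 expressed loci and -0.32 over the 4951 without an accession. At least 2-fold higher were 54 of 660 (8.18%, 6.21 to 10.5), where 4.64% of all expressed loci, 7.37% of those without an accession and 7.25% of the latter outside distal regions were. At least 2-fold lower were 77 (11.7%, 9.32 to 14.4), where 5.54% of all and 11.5% of those without an accession, in distal regions or not, were. These shares are near the background of unnamed loci. With AngII values scaled so that the median locus of the table is at 0, the median here was -0.05, and 84 were higher and 65 lower. With 5 in place of 1 added to both values, 6 were higher and 4 lower.

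The deposited bounds of both conditions were apart for 33 of the 54 higher loci, at 26 intervals in 15 regions, and for 46 of the 77 lower, at 35 intervals in 29 regions. A locus listed at 0 FPKM has both bounds at 0, so its bounds are apart whenever the other library's lower bound is above 0. Both sets hold such loci, the lower set more of them than the higher. Among them are XLOC_008112 (0 in control) and XLOC_012302 (0 after AngII), and their separation says little about error. Past 2-fold with bounds apart were 3.04% and 3.07% of all expressed loci, 4.42% and 6.36% of those without an accession, and 4.33% and 6.27% of the latter outside distal regions, against 5% and 6.97% here. Of the 15 regions with higher loci, 14 lay at least 50% under AngII H3K36me3, with a median of 100% under it. Of the 29 with lower loci, 21 did, with a median of 78.8%. The exact intervals of those shares, 68.1 to 99.8% and 52.8 to 87.3%, overlap.

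**Figure D3:**
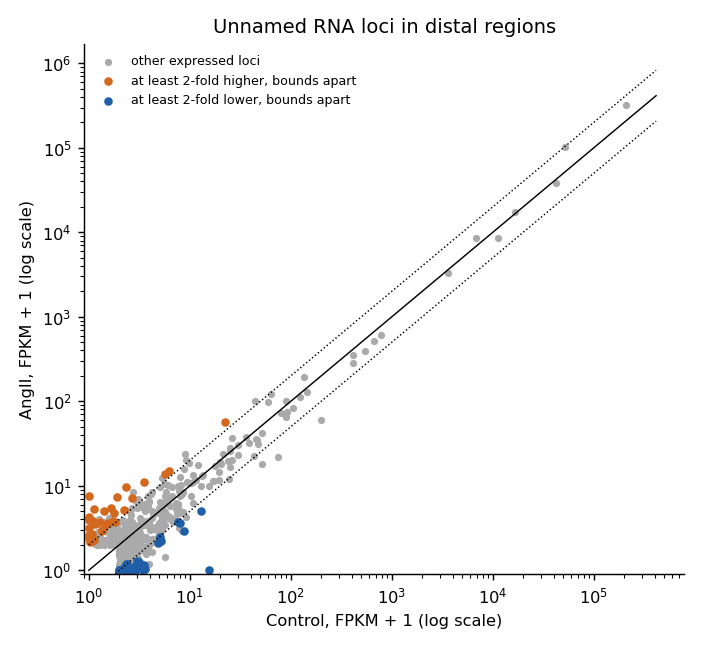
FPKM + 1 after AngII (y axis, log scale) against control (x axis, log scale) for the 660 expressed unnamed loci in distal regions, 1 library each. The solid line marks equal values and the dotted lines 2-fold. Orange and blue points are the 33 higher and 46 lower loci with bounds apart, of which 25 and 41 are under 5 FPKM in both libraries.

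In 21 regions at least 2 loci passed 2-fold with bounds apart, 10 with higher and 11 with lower loci, a set chosen after values were seen. Neighbouring regions can share the same loci, and the 21 form 15 groups that share none. They are 1.29% (0.802 to 1.97) of distal regions and 16.7% (10.6 to 24.3) of the 126 with at least 2 expressed unnamed loci. Of near-gene regions, 11 (0.134%, 0.0669 to 0.240), or 3.79% (1.91 to 6.69) of the 290 with at least 2 such loci, were of this kind, and they form 11 groups. The intervals count each region as independent, which distal regions with shared loci are not. Repeated loci thus raise the distal count alone, and the difference was not tested. Among the regions with higher loci, 3 neighbours on chromosome 4 lay between Capza3 and Pde3a, the latter a cyclic nucleotide phosphodiesterase of heart and smooth muscle. RefSeq lists Plekha5 and Aebp2, a cofactor of Polycomb complex PRC2, as protein-coding genes in that interval, and 10 long non-coding RNA genes. The first, rn4 chr4:177919539-177963713, lay 755 kb from Capza3 and 695 kb from Pde3a, with the nearest named locus 42.9 kb away. All 4 expressed loci in it were higher. XLOC_021400 (3053 bp) had 1.36 FPKM in control (bounds 0.616 to 2.10) against 8.63 with AngII (4.85 to 12.4), a log2 ratio of 2.03. The next pieces along the region stood at 0.903 and 6.38 FPKM (XLOC_021401), 0.663 and 4.50 FPKM (XLOC_021402) and 0.767 and 3.71 FPKM (XLOC_020857). Their log2 ratios were 1.95, 1.73 and 1.41, all with bounds apart.

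The listed regions of that stretch differed as well. The limits of width and of distance to named loci applied to control H3K36me3 regions only. AngII H3K36me3 regions were also wider across the whole list, at a median of 12604 bp against 11780 bp in control. Control H3K36me3 was listed as 3 separate regions, and 1 AngII region ran without a gap over all of them, from -6.19 to 113 kb relative to the start of the first. H3K4me3 lay near the start, from 3.49 to 5.93 kb and again from 10.1 to 10.7 kb in control, and as 1 region from 3.43 to 10.8 kb after AngII. The first RNA piece began 5.16 kb from the region start. In the neighbour rn4 chr4:177971960-177979616 all 3 expressed loci passed 2-fold with bounds apart, and XLOC_021404 had 0.452 and 2.47 FPKM. In the third, rn4 chr4:177983151-178023202, 3 of 6 did, and XLOC_021408 had 0.747 and 2.85 FPKM.

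On chromosome 13, 2 distal regions shared an interval of 13 listed pieces between Ipo9, a nuclear import receptor, and Csrp1, a LIM protein of smooth muscle. RefSeq lists Nav1, a microtubule-associated protein, and 3 long non-coding RNA genes there. XLOC_008112 was listed at 0 FPKM in control against 6.66 with AngII (1.34 to 12.0). XLOC_008107 and XLOC_008110 were also listed at 0 in control, and stood at 3.27 and 2.96 with AngII. All 11 expressed pieces had log2 ratios above 0, and 5 passed 2-fold with bounds apart. In rn4 chr13:48670293-48709755, H3K4me3 covered 20.4 to 25.2 kb from the region start in control and -0.015 to 25.3 kb after AngII, so that both ends were marked after AngII and 1 end in control. The AngII H3K36me3 region ran from -229 to 50.7 kb relative to that start and lay over both distal regions. Ipo9 ended 236 kb before that start, so this AngII region reached within 10 kb of a named locus. Neither distal region is thus among those that stood apart from regions near named loci.

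H3K4me3 at both ends after AngII with none in control was found at rn4 chr2:211785371-211793027, between Olfm3 and S1pr1, a sphingosine-1-phosphate receptor of vascular cells. The nearest control H3K4me3 lay 34.4 kb from its start, while AngII H3K4me3 lay 0.357 kb from the start and 0.54 kb beyond the end. The locus interval there spans 143264 bp and holds 23 pieces. XLOC_016109 had 0.405 FPKM in control (bounds 0.0102 to 0.799) against 4.09 with AngII (1.63 to 6.56), a log2 ratio of 1.86. XLOC_015129 had the highest level, 4.11 FPKM in control (bounds 2.66 to 5.55) against 8.55 with AngII (5.89 to 11.2), a log2 ratio of 0.90 with bounds apart. The region lay 56.1 kb from S1pr1 and wholly under AngII H3K36me3.

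**Figure D4:**
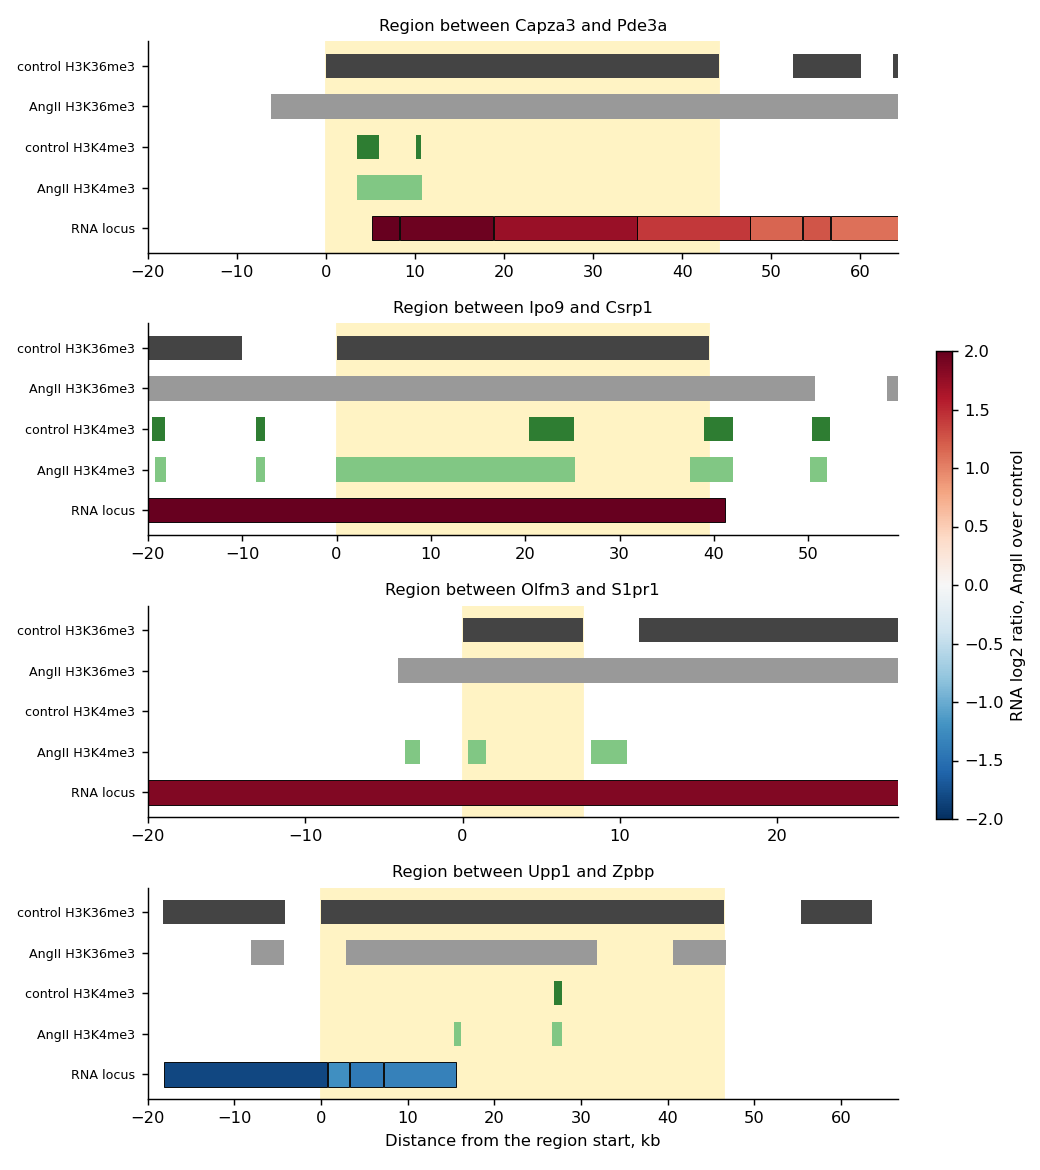
Deposited H3K36me3 and H3K4me3 regions and expressed unnamed RNA loci around 4 distal regions (yellow), by distance from the region start in kb (x axis). RNA loci are coloured by log2 ratio, and an interval with several pieces is drawn once with its largest ratio. The 4 regions were picked after values were seen. The top 3 have higher RNA and 1 continuous AngII H3K36me3 region over the yellow stretch, and the bottom one has lower RNA and AngII H3K36me3 in pieces. Control H3K36me3 is listed as separate regions in all 4 windows. Whether the direction of RNA goes with the continuity of H3K36me3 was not tested.

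Other regions with higher RNA were spread over several chromosomes. Between Cpe, a carboxypeptidase of prohormones, and Tll1, a tolloid-like protease, rn4 chr16:26895773-26958206 held 7 expressed loci, all above 0 with a median log2 ratio of 1.22. Its XLOC_010681 was the highest of these, at 21.4 FPKM in control (bounds 12.4 to 30.4) against 55.9 with AngII (33.0 to 78.8). Between the repair gene Ercc8 and the elongase gene Elovl7, rn4 chr2:39457780-39476627 held 5 expressed loci in a row, all above 0. XLOC_015379 had 4.63 and 12.8 FPKM and XLOC_015383 had 5.19 and 13.9 FPKM, both with bounds apart, and no H3K4me3 lay in that region in either condition. Between Rasgrp1 and Fsip1, in an interval where RefSeq lists Thbs1, a matrix glycoprotein, XLOC_018386 had 0.0968 FPKM in control against 2.82 with AngII. H3K4me3 was found inside that region, rn4 chr3:104181476-104193255, after AngII only.

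XLOC_005877, of 513 bp, had 0.113 FPKM in control (bounds 0 to 0.339) against 4.28 with AngII (1.58 to 6.99), a log2 ratio of 2.25. It lay in rn4 chr10:96017169-96026592, between Ern1, a sensor of unfolded protein, and Pecam1, with H3K4me3 at 1 end in both conditions. Ern1 and Pecam1 lay 161 and 29.6 kb away, and the nearest named locus 13.7 kb away. RefSeq lists the protein-coding gene Tex2 in that interval. On chromosome 6, in an interval between Tmx1 and Actr10 where RefSeq lists Frmd6, XLOC_024770 had 0.303 and 2.74 FPKM. On chromosome 16, between Spcs3 and Vegfc, the growth factor of lymphatic endothelium, a region 134881 bp wide had 7 expressed loci above 0 and 30.5% of its width under AngII H3K36me3. Its XLOC_010444 had 0.447 and 2.44 FPKM. Of the 15 regions with higher RNA this one had the least AngII cover.

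Among loci over 300 bp with bounds apart, the largest decrease was at XLOC_008580, in a pair of neighbours on chromosome 14 between Upp1, uridine phosphorylase, and Zpbp, 606 and 625 kb from the nearest named locus. It stood at 2.63 FPKM in control (bounds 1.57 to 3.69) against 0.0314 with AngII (0 to 0.0943), a log2 ratio of -1.82. All 7 expressed loci of the wider neighbour, rn4 chr14:90851229-90897759, were below 0, and 6 passed 2-fold with bounds apart. XLOC_009287, XLOC_009288 and XLOC_009289 had 1.39, 1.87 and 1.87 FPKM in control against 0.0170, 0.0770 and 0.120 with AngII. Of the 2 regions, 27.1% and 75.1% lay under AngII H3K36me3. RefSeq lists Abca13, a lipid transporter, among 10 genes between the flanking loci.

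Between Jag1, a Notch ligand, and Btbd3, rn4 chr3:125672045-125772174 spans 100130 bp and held 13 expressed loci, all below 0, of which 8 passed 2-fold with bounds apart. Jag1 and Btbd3 lay 456 and 610 kb away, and the nearest named locus 17.2 kb away. XLOC_019420 had 2.54 FPKM in control (bounds 0.640 to 4.44) against 0.160 with AngII (0 to 0.608). XLOC_018500 had the highest level, at 3.8 and 1.12 FPKM. Without genes matched to a locus with an accession, RefSeq lists 6 long non-coding RNA genes and 0 protein-coding genes between the flanking genes. H3K4me3 lay inside, with 65.1% of the region under AngII H3K36me3.

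Between Nrg1, neuregulin, and Fut10, 4 distal regions of chromosome 16 shared an interval of 306086 bp with 31 listed pieces. All 7 expressed pieces were below 0, 3 of them listed at 0 after AngII, and XLOC_010755 had 3.75 and 1.41 FPKM. AngII cover of the 4 regions was 93.5, 30.0, 91.3 and 47.9%. Between Btg1, an inhibitor of proliferation, and Dcn, decorin, rn4 chr7:34315459-34355510 held XLOC_025155 at 7.81 FPKM in control (bounds 5.44 to 10.2) against 1.95 with AngII (1.06 to 2.84), a log2 ratio of -1.58.

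XLOC_012302, of 325 bp, between Rab18 and the Wnt receptor gene Fzd8, stood at 2.44 FPKM in control and was listed at 0 after AngII. Its region lay 1589 and 826 kb from these genes and 121 kb from the nearest named locus. XLOC_026338, of 596 bp, between Rasal3 and Cyp4f5, stood at 1.92 FPKM in control and was listed at 0 after AngII, in a region with H3K4me3 at 1 end in both conditions. On chromosome X, between Rai2 and Gja6, 5 expressed loci were all below 0 in a region with 8.46% of its width under AngII H3K36me3. XLOC_030343 had the highest level there, at 2.81 and 0.966 FPKM. On chromosome 5, 3 expressed loci below 0 lay in a region of 132525 bp between Gdf6 and Cfap418, the highest at 1.18 FPKM in control. All loci past 2-fold with bounds apart in it were listed at 0 after AngII. These genes lay 428 and 423 kb away, and the nearest named locus 20.8 kb away. On chromosome 2, 6 expressed loci were below 0 in rn4 chr2:177409461-177443622, which had H3K4me3 at 1 end in both conditions, and XLOC_014325 there had 3.31 and 1.26 FPKM. There too, all loci past 2-fold with bounds apart were listed at 0 after AngII. Of that region 98.5% lay under AngII H3K36me3.

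Of the 4 regions of highest FPKM with H3K4me3 at both ends in a condition, those on chromosomes 2 and 13 are described above, and the others were on chromosomes 4 and 5. XLOC_021125, in the high-scoring region between Ezh2 and Pdia4, stood at 12.0 FPKM in control (bounds 6.95 to 17.1) against 4.04 with AngII (2.18 to 5.90), a log2 ratio of -1.37, with H3K4me3 touching both ends in both conditions. XLOC_022209, in rn4 chr5:61690597-61697075 between Polr1e and Trmt10b, stood at 7.48 and 3.89 FPKM with overlapping bounds. There H3K4me3 was at 1 end in control and at both after AngII. RefSeq lists the protein-coding genes Fbxo10, Tomm5 and Frmpd1 in that interval.

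Absence of a name in the RNA table was not absence of a gene in a later annotation. Of the 1341 regions with usable flanking genes, RefSeq GRCr8 lists at least 1 protein-coding gene between the flanking genes of 795 (59.3%, 56.6 to 61.9) and at least 1 long non-coding RNA gene for 1069 (79.7%, 77.5 to 81.8). Genes matched to a locus with an accession are left out of these counts, and without them no gene lies between the flanking genes of 67. The interval between flanking genes is much wider than the region, so a gene listed there was not shown to overlap it. Only 77.9% of the 20869 loci with an accession matched a RefSeq gene. A protein-coding gene was listed for 65.8% (58.7 to 72.4) of 196 such regions with an expressed unnamed locus and 58.2% (55.2 to 61.0) of 1145 without, and these intervals overlap.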

How the data were processed

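RNA, H3K4me3 and H3K36me3 were measured in 6 libraries of the 8 samples, 1 per mark and condition, and the 2 input libraries were not analysed here. The deposited region lists give rn4 coordinates and a score per region, and per the submitters' processing notes Bowtie was among the tools used, with the region caller, the number of samples pooled and the read depth not stated. The deposited FPKM values, with lower and upper bounds, are credited in the same notes to TopHat, Cufflinks and Cuffdiff, with no version, and both RNA files hold the same table. FPKM keeps no depth, so depth is unknown. FPKM ratios use a pseudocount of 1, and a locus was expressed at 1 FPKM or more in a library. Ratios on the log2((AngII + 1)/(control + 1)) scale understate the change of weak loci. Shares carry exact 95% Clopper-Pearson intervals. With 1 library per condition no test was made.

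Regions, loci and gene lists were chosen with earlier results of these data known. Names follow a rule: the 8 regions of highest FPKM, the 5 largest increases and 5 largest decreases over 300 bp with bounds apart, the 6 widest regions, the 6 widest without a listed RNA locus, the 3 highest scores, the 4 of highest FPKM marked at both ends, and 3 regions on each side of a threshold. Flanking genes are named with them, and other names were chosen after values were seen. Flanking genes were compared with RefSeq GRCr8, used for names, neighbours and promoter sequences only. To be usable for genes between them, both had to lie on the region's chromosome with interval lengths within 1.5 times of each other. Their order was not required to be the same, and some pairs that failed this are named as neighbours only. Python 3.11.15, pandas 2.3.3, numpy 2.4.6, scipy 1.17.1 and matplotlib 3.10.9 were used, and the counting steps were tested on simulated regions. Alternatives changed the width and distance limits, the required AngII cover, the scores kept, the end distance, the FPKM minimum, the pseudocount and the scaling.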

Additional observations from a re-analysis of the deposited data

How the results depend on the processing

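No paired analysis was possible because each condition has 1 library per measurement, and for the same reason none could be left out. The number of distal regions was 949 with a width of at least 10000 bp, 963 over 50 kb from named loci and 601 without the lower score quartile of both H3K36me3 lists. H3K4me3 at an end was found in 8.25% (control) and 8.25% (AngII) when it had to touch the end, 28.6% and 29.0% within 5 kb, 10.3% and 10.8% without the lower H3K4me3 score quartile, 11.4% and 12.0% over 50 kb from named loci, 18.1% and 18.4% with at least 50% AngII cover, and 22.0% and 21.5% without the lower H3K36me3 score quartile. An expressed locus was found in 19.3% at 0.5 FPKM, 5.42% at 5 FPKM, 12.6% when wholly within the region, 20.9% at a width of 10000 bp, 13.6% over 50 kb and 19.1% without the lower score quartile. Higher and lower loci numbered 120 and 232 with a pseudocount of 0.1, and 6 and 4 with 5, where the median log2 ratio was -0.10. After scaling, 84 were higher and the median was -0.050. With 1 value per interval 50 were lower. Scaling turned the log2 ratios of XLOC_008020 to 0.12, of XLOC_003360 to 0.18 and of XLOC_025178 to 0.15. Of the 44 loci named, 27 were past 2-fold, of which 24 fell under it with a pseudocount of 5 and 0 with a pseudocount of 0.1 or scaling. Loci under 2-fold passed it in 7 cases with 0.1 and in 3 with scaling. The causes of these shifts were not tested.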
